A study of Rattus norvegicus with 23 samples.

Results

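The samples described here are NRK-52E cells of the rat kidney at pH 6.0, taken as the labels give them: 3 samples of sample group 3 (A036, A037 and A038) and 3 samples of sample group 1 (A024, A025 and A026). They are 6 of the 23 rat samples used. The comparison asks how far the acidotic state of a single cell line differs between both sample groups, gene by gene. The study as a whole compares acid responses between several human and rat cell types, with epithelial cells, fibroblasts and smooth muscle cells among them. NRK-52E cells, which the labels call NRKE cells, are an established epithelial line from rat kidney, and NRK-49F cells, called NRKF in the labels, are an established fibroblast line from the same organ.

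Every group used here went through the same protocol up to the pH. Cells grew in DMEM with FCS and NaHCO3 (1.5 g/l by the labels, 2 g/l by the paper's methods), were held in medium free of FCS for 24 h, and then spent 48 h at pH 7.4 or at pH 6.0, which was set with HCl. The groups are NRK-52E cells at pH 6.0 (sample groups 1 and 3, 3 samples each), NRK-52E cells at pH 7.4 (A021, A022 and A023 in sample group 1, A033, A034 and A035 in sample group 3), and NRK-49F cells in sample groups 4 and 6 at both pH values. The labels do not say what a sample group is, so it may hold a run, a day or a passage, and these cannot be told apart. Nor do they say whether samples of a group are separate cultures, so every p-value here measures only the spread between these samples.

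Read pairs of poly(A) RNA were counted on genes. At pH 6.0 the total count was 17015842 in A024, 17205649 in A025 and 33690997 in A026, all of sample group 1. In sample group 3 it was 17671089 in A036, 16657666 in A037 and 19830621 in A038. A026 was the deepest of the 6, and the other 5 lay close together. Levels are given as FPM, the counts of a gene divided by the library total, scaled by edgeR's TMM factors, times 1000000. FPM are not divided by gene length, so they compare samples and not genes. A log2 fold change here is sample group 3 minus sample group 1 unless stated otherwise, so that a positive value is higher in sample group 3. A gene is called, and is said to have risen or fallen, where edgeR's quasi-likelihood test gave a Benjamini-Hochberg adjusted p under 0.05 over all 15478 genes tested.

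The epithelial label was read against markers. Krt8, a keratin of simple epithelia, had 206, 194 and 249.9 FPM in sample group 3 and 201, 217 and 259.7 FPM in sample group 1. These ranges overlap. Krt8 does not mark NRK-52E cells as the epithelial line, as the NRK-49F samples had more of it at pH 6.0, 437.8 to 697.2 FPM. Several other epithelial markers were at or near 0: Cdh1, the gene of E-cadherin, had at most 0.350 FPM in any of the 6 samples and 0 counts in sample group 3, Epcam had 0 counts, and Krt18 had at most 1 count. Of the 13 epithelial markers written down, 6 were tested and 0 were called in either direction, by edgeR or DESeq2, and 1 was lower at an unadjusted p under 0.05. The sum over them, led by Krt8, was 212, 199 and 255 FPM in sample group 3 and 204, 222 and 265 FPM in sample group 1. Krt7, another keratin gene, had 2.488 to 5.434 FPM in the 6 samples, against 0.06096 to 0.7046 FPM in the NRK-49F samples at pH 6.0. Dsp, the desmoplakin gene, went the other way, with 0.1568 to 0.8186 FPM against 41.77 to 77.62 FPM. So the cells carried Krt8 and some Krt7, while Dsp was low and Cdh1, Epcam and Krt18 were at or near 0.

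Markers of other cell types were read in the same way. Of 12 fibroblast markers, 10 were tested and 1, the fibrillar collagen gene Col3a1, was called. The summed level of these markers was 3092, 3025 and 2879 FPM in sample group 3 and 1814, 1811 and 1895 FPM in sample group 1, nearly all of it Col3a1. That gene does not mark fibroblasts here, as the NRK-49F samples at pH 6.0 had only 366.5 to 519.6 FPM. Postn had 8.675 to 14.08 FPM and Pdgfrb 9.119 to 12.44 FPM, while Pdgfra, Lum, Dcn and Prrx1 had at most 2 counts in any of the 6 samples. Markers of macrophages, T cells and endothelium summed to between 3.98 and 5.43 FPM. Of the 4 tested, 0 were called, by edgeR, by DESeq2 or at an unadjusted p under 0.05. A further 127 genes were chosen as high in every NRK-49F sample (20 FPM or more) and near 0 in NRK-52E cells (median up to 1 FPM). They summed to between 16.3 and 22.7 FPM in the 6 samples at pH 6.0, against at least 21245 FPM in each NRK-49F sample. The choice of genes sets this gap between the lines. The sums of these genes in both sample groups at pH 6.0 overlapped.

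Some libraries at pH 7.4 stood apart. The same 127 genes summed to 330.3 FPM in A021, 133 FPM in A022 and 97.1 FPM in A033, and to between 28.3 and 42.3 FPM in A023, A034 and A035. A035 was less like the other samples of its group: its Pearson correlation across genes, on log2 values, was 0.987 with A033 and 0.9872 with A034, while A033 and A034 correlated at 0.9962. Such correlations run across genes, which are not independent replicates. The comparison at pH 6.0 uses none of these libraries as a member of its groups. Total counts of genes called at pH 7.4, for acid responses and for their difference are given with all samples. As an alternative chosen after seeing the data, they are also given without A021 and A035. Other values that use pH 7.4 rest on all samples unless stated. What these libraries add to those results was otherwise not tested.

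An acidic medium is a challenge that renal tubule cells meet in metabolic acidosis. Tubule cells are known to answer it with changes in ion transport, in ammonia formation from glutamine and in growth. Acid also loads the endoplasmic reticulum and the lysosome, the acidic compartment where hydrolases break down what the cell takes up. Tubule cells further deposit and remodel the matrix beneath them, and the balance of matrix genes, protease genes and growth signals is much studied in kidney fibrosis.

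At pH 6.0 the sample groups differed in 4105 genes, 26.5% of those tested. Of these, 1697 (11%) were higher in sample group 3 and 2408 (15.6%) were lower. An absolute log2 fold change above 1 was found for 1164 called genes, 353 higher and 811 lower. Over all tested genes the median log2 fold change was -0.0072 and the median absolute value 0.32. In 7225 genes (46.7%) the FPM of the 3 samples of sample group 3 did not overlap those of sample group 1. Across genes, samples of the same group correlated at 0.9951 to 0.9971, and samples of different groups at 0.9826 to 0.9849. Every pair within a group was thus closer than every pair between groups.

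**Figure D1:**
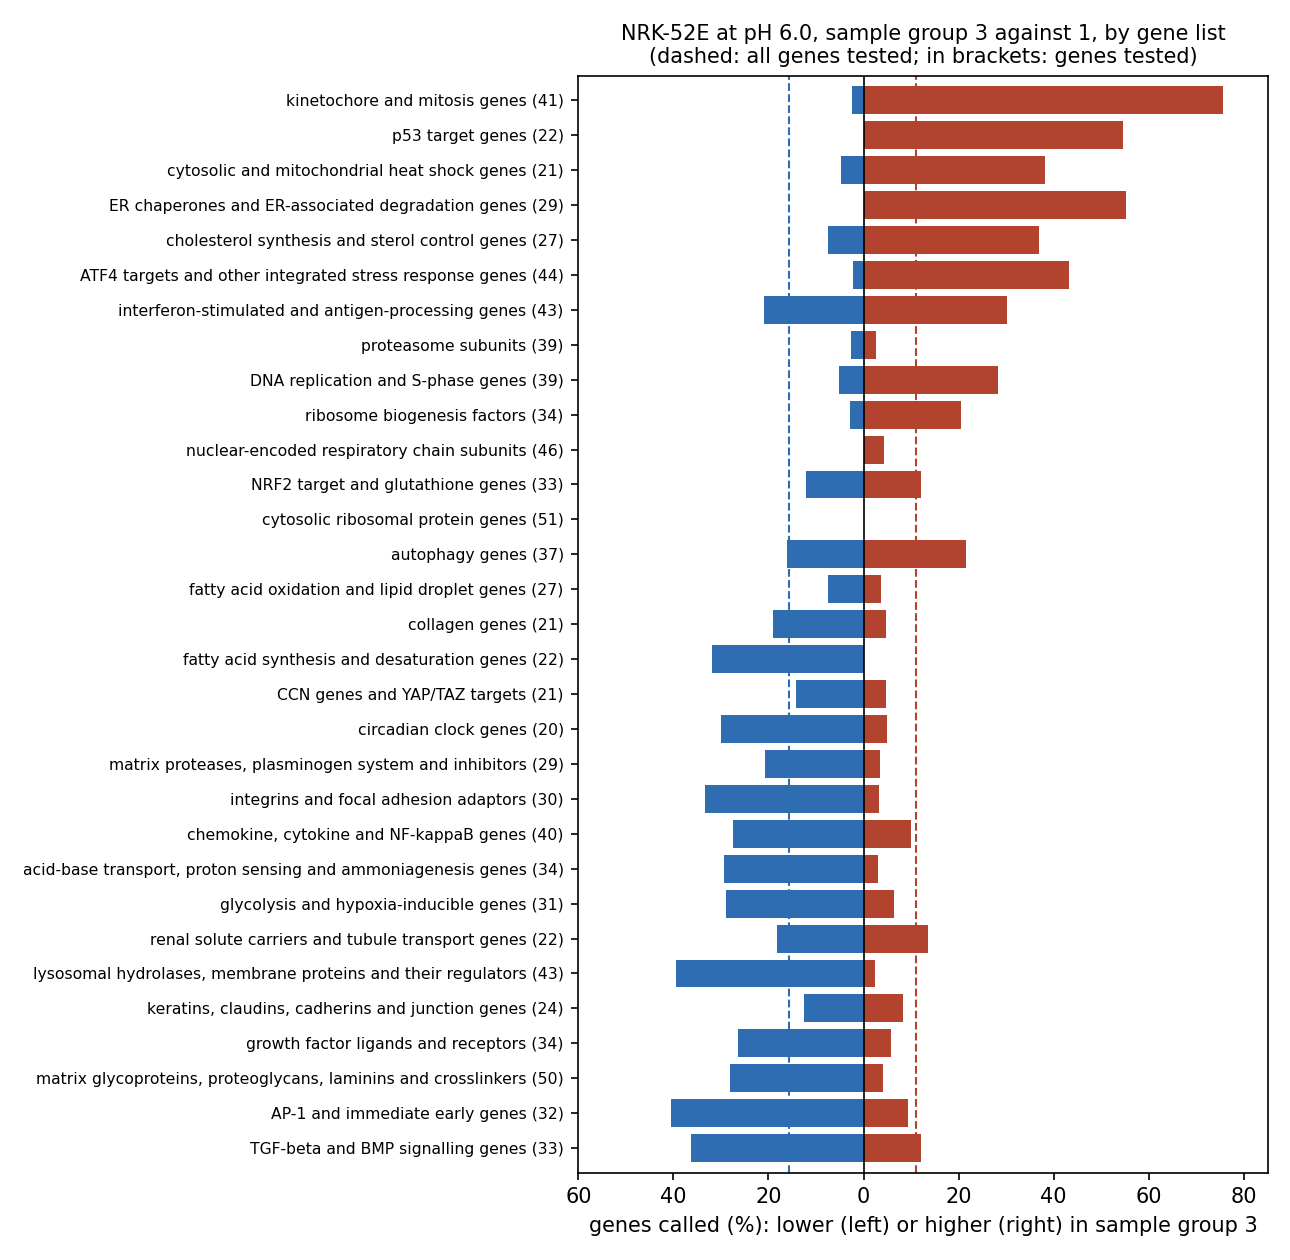
Share of the tested genes of each list that were called at pH 6.0 between sample groups 3 and 1 of NRK-52E cells, in percent. Bars to the right are genes higher in sample group 3 and bars to the left are genes lower, dashed lines give the shares over all 15478 genes tested (11% and 15.6%), and lists with at least 20 tested genes are shown, ordered by their median log2 fold change.

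Genes of cell division stood higher in sample group 3. Of 41 tested kinetochore and mitosis genes, 31 rose and 1 fell, with a median log2 fold change of 1.26. Hmmr, whose product binds the mitotic spindle, had 42.7, 43.3 and 37.5 FPM in sample group 3 and 9.37, 5.29 and 7.05 FPM in sample group 1 (log2 fold change 2.51, SE 0.22, adjusted p 7.21e-08). Top2a, the topoisomerase that untangles chromosomes before division, had 27.02, 24.97 and 22.7 FPM in sample group 3 and 10.4, 6.06 and 7.92 FPM in sample group 1 (log2 fold change 1.61, SE 0.21, adjusted p 1.05e-05). For both genes every sample of sample group 3 lay above every sample of sample group 1. The groups did not overlap in 46.7% of all genes tested, and Hmmr was also named by a rule that asks for this. Ccnb1, the mitotic cyclin, was at 6.69, 6.80 and 7.15 FPM in sample group 3 and 2.49, 1.80 and 1.89 FPM in sample group 1 (log2 fold change 1.75, SE 0.23, adjusted p 1.25e-05). Mki67, the usual proliferation marker, was not called, with 4.96, 7.63 and 5.23 FPM in sample group 3 and 4.13, 3.71 and 4.51 FPM in sample group 1 (log2 fold change 0.52, adjusted p 0.137). The spindle genes Ckap2 and Kifc1 rose as well: Ckap2 was 5.87-fold and Kifc1 4.64-fold the level of sample group 1. In bulk RNA, fewer cells of a kind and less RNA per cell cannot be told apart, which holds for all values here.

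The summed level of the mitosis list was 691, 664 and 615 FPM in sample group 3 and 364, 336 and 361 FPM in sample group 1. The list differed between the sample groups at pH 7.4 too. There 29 of its genes (70.7%) were higher in sample group 3, beside 1.18% of all genes tested, with a median of 0.95. Without A021 and A035 the count was 23, beside 117 over all genes, with a median of 1.11. Top2a had 40.3, 39.4 and 23.5 FPM in sample group 3 and 13.3, 10.2 and 16.2 FPM in sample group 1 at pH 7.4 (log2 fold change 1.38, adjusted p 0.000681). The difference between the acid responses of both sample groups was called for 1 gene of the list, Hmmr, beside 9.91% of all genes tested.

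Genes of DNA replication rose more often than they fell. Of 39 tested, 11 rose and 2 fell, with a median of 0.18. Cdt1, which licenses replication origins, had 11.6, 7.63 and 8.23 FPM in sample group 3 and 3.39, 2.78 and 3.03 FPM in sample group 1 (log2 fold change 1.58, SE 0.20, adjusted p 9.06e-06). The helicase subunit gene Mcm5 and the ribonucleotide reductase gene Rrm2, both chosen after their values were seen, gave log2 fold changes of 1.56 (adjusted p 6.23e-07) and 1.52 (adjusted p 2.81e-06). Mcm2, another subunit of the same helicase, fell instead, from 89.2, 87.97 and 89.5 FPM in sample group 1 to 65.8, 68.4 and 67.6 FPM in sample group 3 (log2 fold change -0.40, adjusted p 0.00109). Brca1, a repair gene of S phase, also fell, with 9.82, 10.9 and 8.92 FPM in sample group 3 and 19.6, 20.3 and 19.3 FPM in sample group 1 (log2 fold change -0.999, adjusted p 0.000594). The clamp gene Pcna was not called (log2 fold change 0.37, adjusted p 0.0854). Members of 1 complex thus moved in opposite directions.

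Promoters of the mitosis genes were read from RefSeq, 250 bases before to 50 bases after each start, on build GRCr8. They are shown because so many of these genes moved together. Cell cycle promoters are known for the letters TTTGAA or TTTAAA (the cell cycle homology region) and for CCAAT. Both were searched on both strands, and TTTAAA reads the same on both. Of the 41 tested mitosis genes 35 had a promoter in the table, and 33 of them (94.3%) held TTTGAA or TTTAAA, beside 18.7% of the promoters of all tested genes and 27.9% of all 27457 promoters. CCAAT stood in 25 (71.4%), beside 37.8% and 37.7%. Both stood in 23 (65.7%), beside 7.48% of the promoters of all tested genes. Capitals mark these letters in the sequences of Hmmr (chr10:25665166-25665465, minus strand) and Ccnb1 (chr2:33655176-33655475, minus strand), each written 5′ to 3′.
Hmmr: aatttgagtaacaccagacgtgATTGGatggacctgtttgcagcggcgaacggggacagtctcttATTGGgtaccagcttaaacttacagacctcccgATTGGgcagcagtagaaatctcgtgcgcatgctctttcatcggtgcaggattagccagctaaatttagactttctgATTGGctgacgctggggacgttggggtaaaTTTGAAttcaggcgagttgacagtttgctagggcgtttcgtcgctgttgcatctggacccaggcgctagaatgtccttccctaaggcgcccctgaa
Ccnb1: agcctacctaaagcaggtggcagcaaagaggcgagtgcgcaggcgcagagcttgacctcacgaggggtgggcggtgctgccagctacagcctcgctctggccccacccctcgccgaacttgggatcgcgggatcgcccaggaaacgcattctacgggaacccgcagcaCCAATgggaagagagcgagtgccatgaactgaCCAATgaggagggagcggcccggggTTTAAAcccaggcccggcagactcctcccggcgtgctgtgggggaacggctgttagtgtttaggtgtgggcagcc
A match describes these letters and is neither a binding site nor a cause. In Hmmr, TTTGAA stood 1 time and CCAAT, as its reverse complement ATTGG, 4 times.

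Cdkn1a, the gene of the kinase inhibitor p21, rose, with 531, 547 and 538 FPM in sample group 3 and 207, 190.2 and 200.2 FPM in sample group 1 (log2 fold change 1.44, SE 0.14, adjusted p 2.45e-07). Its samples within each group lay close together, and the groups were far apart. Of 13 tested kinase inhibitors, G1 cyclins and pocket proteins, 3 rose and 0 fell by edgeR, with 0 falls also by DESeq2 and at an unadjusted p under 0.05, and the median was 0.22. Cdkn1b, the gene of p27, had a log2 fold change of -0.072 (adjusted p 0.596), and the G1 cyclin gene Ccnd1 had -0.025 (adjusted p 0.904). Neither was called, and in both genes the groups overlapped.

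Cdkn1a is also a known target of p53, the transcription factor of the damage response. Of 22 tested p53 targets, 12 rose and 0 fell by edgeR, with a median of 0.48. DESeq2 also called 0 falls, and 1 gene was lower at an unadjusted p under 0.05. Mdm2, which encodes the ubiquitin ligase of p53, had 247, 234 and 213 FPM in sample group 3 and 111, 104.5 and 102 FPM in sample group 1 (log2 fold change 1.13, SE 0.070, adjusted p 2.09e-09). Plk2, a stress-induced kinase gene, had 91.4, 76.7 and 76.3 FPM in sample group 3 and 31.7, 30.2 and 31.1 FPM in sample group 1 (log2 fold change 1.39, SE 0.11, adjusted p 2.34e-08). Sample group 3 was 2.19-fold sample group 1 in Mdm2 and 2.63-fold in Plk2. Ccng1, Phlda3 and the death receptor gene Fas, chosen after their values were seen, had log2 fold changes of 1.40, 1.31 and 1.23. Tp53inp1 had a log2 fold change of 1.55 (adjusted p 0.0111) but lost its call without A026 (adjusted p 0.0514). Eda2r, a p53 target that was near 0 at pH 7.4, was not called (log2 fold change 0.41, adjusted p 0.518).

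The p53 targets together summed to 3253, 3160 and 3228 FPM in sample group 3 and 1655, 1590 and 1679 FPM in sample group 1 at pH 6.0. At pH 7.4 the sums were 679.5, 711 and 713 FPM and 687, 695 and 673 FPM. The sample groups were thus far apart at pH 6.0 and close at pH 7.4. There 1 gene of the list was higher and 1 lower (4.55% each), beside 1.18% and 1.62% of all genes tested. The acid response itself differed, tested as an interaction, for 8 genes of the list (36.4%), all higher in sample group 3. Over all genes tested 3.45% were higher. A higher response means a more positive or less negative log2 fold change, whatever its size, and a lower response the reverse. Without A021 and A035 the count was 7, beside 295 over all genes. For Mdm2 this difference of responses was 1.18 (adjusted p 8.17e-07), and for Cdkn1a it was 1.14 (adjusted p 0.000874).

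**Figure D2:**
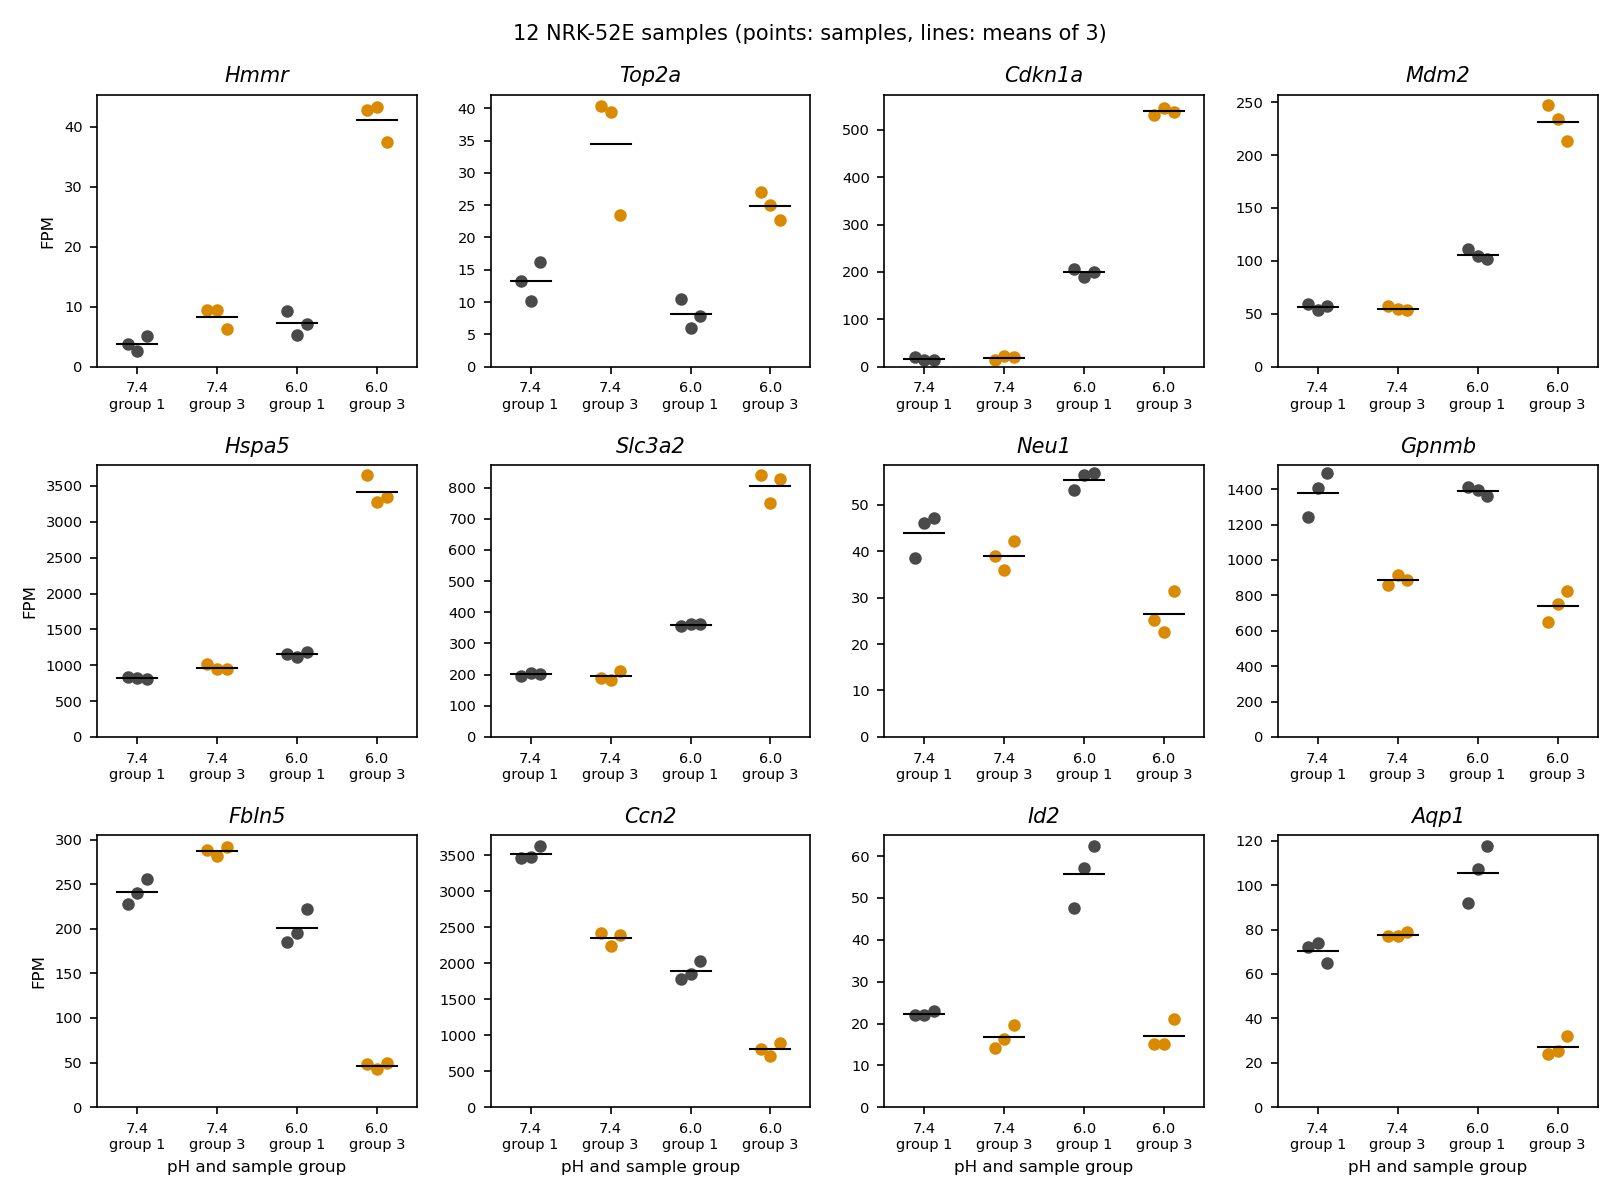
FPM of 12 genes in the 12 NRK-52E samples, by pH and sample group, with 1 point a sample and a line at the mean of 3 samples. Cdkn1a, Mdm2, Hspa5 and Slc3a2 sit highest in the 3 samples of sample group 3 at pH 6.0, and Fbln5 and Aqp1 sit lowest there.

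Stress genes of protein folding rose in part. Of 29 tested chaperone and degradation genes of the endoplasmic reticulum, 16 rose and 0 fell by edgeR, with 0 falls also by DESeq2 and at an unadjusted p under 0.05, and a median of 0.35. Hspa5, the gene of the chaperone BiP, had 3647, 3275 and 3344 FPM in sample group 3 and 1161, 1109 and 1188 FPM in sample group 1 (log2 fold change 1.57, SE 0.10, adjusted p 2.43e-09). Sample group 3 was thus 2.97-fold the level of sample group 1. The co-chaperone genes Sdf2l1 and Dnajb11, chosen after their values were seen, had log2 fold changes of 1.38 (adjusted p 5.68e-05) and 0.93 (adjusted p 1.16e-05). The summed level of the list was 14162, 13561 and 14415 FPM in sample group 3 and 8895, 8946 and 9396 FPM in sample group 1. For 7 genes of the list (24.1%), beside 3.45% of all genes tested, the acid response was higher in sample group 3. Without A021 and A035 this held for only 2. Hspa5 was among the genes called both ways, with a difference of responses of 1.34 (adjusted p 8.87e-06).

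The promoter of Hspa5 is shown because this gene led the list. Promoters of such chaperones are known for CCAAT, which stood in 21 of 23 (91.3%) of those of the list, on either strand, beside 37.8% of the promoters of all tested genes. Other lists also held it more often than that, with 70% for cholesterol synthesis, 58.8% for p53 targets and 58.1% for replication. In Hspa5 (GRCr8, chr3:38452766-38453065, plus strand) it stood 4 times, marked by capitals.
Hspa5: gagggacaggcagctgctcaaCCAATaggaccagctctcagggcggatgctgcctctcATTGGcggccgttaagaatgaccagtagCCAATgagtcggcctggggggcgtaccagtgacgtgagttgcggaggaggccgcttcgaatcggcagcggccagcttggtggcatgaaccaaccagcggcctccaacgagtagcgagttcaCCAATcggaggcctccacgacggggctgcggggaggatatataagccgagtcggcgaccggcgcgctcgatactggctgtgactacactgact

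Chaperones outside the endoplasmic reticulum also rose more often than they fell. Of 21 tested heat shock genes of the cytosol and mitochondria, 8 rose and 1 fell, with a median of 0.39. Hsp90aa1, the inducible HSP90 gene, had 809, 789 and 801 FPM in sample group 3 and 463, 434 and 502 FPM in sample group 1 (log2 fold change 0.78, SE 0.10, adjusted p 9.66e-06). The member that fell was the co-chaperone gene Bag3 (log2 fold change -0.27, adjusted p 0.0264), whose call was lost without A025, A026, A036, A037 or A038, at adjusted p up to 0.0829. Acid responses were higher in sample group 3 for 6 genes of the list (28.6%), beside 3.45% of all genes tested. Without A021 and A035 this held for 3.

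The integrated stress response, which slows translation and turns on ATF4, showed the same direction in part of its targets. Of 44 tested genes, 19 rose and 1 fell, with a median of 0.25. Slc3a2, the shared heavy chain of amino acid exchangers, had 839, 750.2 and 827 FPM in sample group 3 and 357, 361 and 361 FPM in sample group 1 (log2 fold change 1.16, SE 0.11, adjusted p 1.44e-07). Atf3, a stress transcription factor gene, had 20.2, 18.98 and 17.3 FPM in sample group 3 and 10.00, 11.5 and 11.9 FPM in sample group 1 (log2 fold change 0.76, SE 0.15, adjusted p 0.000636). Both genes had every sample of sample group 3 above every sample of sample group 1. Trib3, a pseudokinase gene chosen after its values were seen, had a log2 fold change of 1.09 (adjusted p 1.93e-05). Ddit3, the gene of CHOP, had 202, 193 and 231 FPM in sample group 3 and 127, 137 and 142 FPM in sample group 1 (log2 fold change 0.62, SE 0.22, adjusted p 0.0391), and its call was lost with any 1 of the 6 samples left out, at adjusted p from 0.0569 to 0.126. Atf4 itself was not called (log2 fold change 0.28, adjusted p 0.170), nor was the asparagine synthetase gene Asns (log2 fold change -0.046, adjusted p 0.769), and Slc38a2 was the member that fell (log2 fold change -0.26, adjusted p 0.0375), a call lost with any 1 of the 6 samples left out (adjusted p up to 0.0931). Targets of 1 pathway therefore did not move as a block. Acid responses were higher in sample group 3 for 11 genes (25%), beside 3.45% of all genes tested. Without A021 and A035 this held for 10. The difference of responses was 1.20 for Slc3a2 (adjusted p 4.54e-05).

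Lysosomal genes fell more often than they rose. Of 43 tested hydrolases, membrane proteins and regulators of the lysosome, 1 rose and 17 fell, with a median of -0.29. Neu1, the lysosomal sialidase gene, had 25.1, 22.6 and 31.4 FPM in sample group 3 and 53.03, 56.3 and 56.8 FPM in sample group 1 (log2 fold change -1.07, SE 0.11, adjusted p 4.84e-07). Gpnmb, a glycoprotein gene of lysosomes and melanosomes, had 647, 750.4 and 824 FPM in sample group 3 and 1414, 1394 and 1364 FPM in sample group 1 (log2 fold change -0.91, SE 0.096, adjusted p 8.08e-07). No sample of sample group 3 reached the lowest of sample group 1 in either gene. Manba, the mannosidase gene, and Cd68, a lysosomal membrane protein gene, both chosen after their values were seen, had log2 fold changes of -1.68 (adjusted p 5.37e-07) and -1.43 (adjusted p 2.36e-06). The member that rose was Tfe3, a transcription factor gene of lysosome formation (log2 fold change 0.27, adjusted p 0.0239), and its call was lost without A024, A025, A026, A036 or A038, at adjusted p up to 0.0700. Lamp1, the main lysosomal membrane protein gene, was not called (log2 fold change 0.26, adjusted p 0.0923).

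The summed level of the lysosomal list was 10243, 10531 and 12148 FPM in sample group 3 and 11937, 12549 and 13043 FPM in sample group 1, so the sums overlapped even though 17 members fell. Psap, the member that added most to these sums, was not called. Acid responses were lower in sample group 3 for 13 members (30.2%), beside 6.46% of all genes tested. Without A021 and A035 this held for 8. Neu1 went in opposite directions: at pH 6.0 against 7.4 it rose in sample group 1 (log2 fold change 0.34, adjusted p 0.0135) and fell in sample group 3 (-0.56, adjusted p 0.000176).

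The letters CACGTG, known from the promoters of many lysosomal genes, stood in 8 of 32 (25%) promoters of the list, beside 9.42% of the promoters of all tested genes and 6.65% of all promoters. Shares of the same letters were 21.7% for the chaperones of the endoplasmic reticulum and 20% for cholesterol synthesis. For mitosis, replication and p53 targets they were 11.4%, 9.68% and 11.8%. CACGTG reads the same on both strands. Mcoln1, the gene of a lysosomal cation channel, held these letters 2 times, in capitals in its sequence. It is shown as the member of the lysosomal list with the lowest log2 fold change among those that had them. It had 0.784, 0.439 and 0.592 FPM in sample group 3 and 2.33, 1.36 and 1.31 FPM in sample group 1, was chosen after its values were seen, and gave a log2 fold change of -1.44 (adjusted p 0.00869, and 0.0542 without A024). Its promoter lies at chr12:6358008-6358307 on the plus strand of GRCr8.
Mcoln1: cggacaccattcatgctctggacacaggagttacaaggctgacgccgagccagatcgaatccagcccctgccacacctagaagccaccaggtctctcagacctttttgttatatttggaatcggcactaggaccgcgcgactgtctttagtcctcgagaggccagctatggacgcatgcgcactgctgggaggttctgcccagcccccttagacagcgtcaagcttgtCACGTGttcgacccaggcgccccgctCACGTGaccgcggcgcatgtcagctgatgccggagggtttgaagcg

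Other genes of degradation gave mixed calls. Of 13 tested cathepsins and cystatins, 2 rose and 1 fell, with a median of 0, and the rises went to 0 without A025, A026, A036 or A037. The cathepsin genes Ctsd (log2 fold change 0.0016, adjusted p 1.000), Ctsb (log2 fold change 0.15, adjusted p 0.432) and Ctsl (log2 fold change -0.33, adjusted p 0.103) were not called. The member that fell was Ctsh, chosen after its values were seen, with a log2 fold change of -1.64 (adjusted p 2.49e-05). Among 14 tested subunits of the proton pump of the lysosome, 2 rose and 5 fell, with a median of -0.062. Atp6v1d, a subunit gene of the rotor, was at 368, 383 and 432 FPM in sample group 3 and 275, 270.1 and 309 FPM in sample group 1 (log2 fold change 0.47, adjusted p 0.00515). Atp6ap2, an accessory subunit gene, was at 181, 194 and 212 FPM in sample group 3 and 289.6, 277 and 325 FPM in sample group 1 (log2 fold change -0.60, adjusted p 1.62e-05). Both were named as the largest called rise and fall of this list, so their opposite directions follow from that choice. Of 37 tested autophagy genes, 8 rose and 6 fell, with a median of -0.046. These shares were 21.6% and 16.2%, beside 11% and 15.6% of all genes tested. Bnip3, a receptor gene of mitophagy, rose (log2 fold change 0.85, adjusted p 0.000983), and Tecpr1, which acts where autophagosomes meet lysosomes, fell (log2 fold change -0.83, adjusted p 0.00311).

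Matrix genes fell more often than they rose. Of 50 tested glycoprotein, proteoglycan, laminin and crosslinker genes, 2 rose and 14 fell, with a median of -0.34. Fbln5, an elastic fibre gene, had 48.3, 42.3 and 49.04 FPM in sample group 3 and 185, 195 and 222 FPM in sample group 1 (log2 fold change -2.11, SE 0.11, adjusted p 1.15e-10). The level in sample group 1 was thus 4.31-fold that in sample group 3. Fbln1, a related gene, moved the other way, with 67.5, 59.6 and 64.3 FPM in sample group 3 and 39.5, 34.3 and 41.2 FPM in sample group 1 (log2 fold change 0.73, SE 0.11, adjusted p 3.21e-05). Thbs1, the thrombospondin gene, and Tgm2, the gene of a crosslinking transglutaminase, both chosen after their values were seen, fell with log2 fold changes of -1.58 (adjusted p 2.19e-06) and -1.29 (adjusted p 0.000212). The fibronectin gene Fn1 was not called, with 6.74, 5.98 and 4.88 FPM in sample group 3 and 12.4, 9.22 and 12.6 FPM in sample group 1 (log2 fold change -0.97, adjusted p 0.136), although its samples did not overlap. Spp1, the osteopontin gene, was near 1 FPM and not called (log2 fold change -0.75, adjusted p 0.702).

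Among 21 tested genes of the collagen list, 1 rose and 4 fell (4.76% and 19%), beside 11% and 15.6% of all genes tested. The median was -0.085. Col3a1, a fibrillar collagen gene, rose, with 3070, 3001 and 2861 FPM in sample group 3 and 1788, 1788 and 1870 FPM in sample group 1 (log2 fold change 0.71, SE 0.13, adjusted p 0.000286). Col1a1, another fibrillar collagen gene, fell, with 19.8, 15.1 and 17.2 FPM in sample group 3 and 34.4, 29.9 and 33.8 FPM in sample group 1 (log2 fold change -0.91, SE 0.20, adjusted p 0.00204). The basement membrane gene Col18a1 fell too (log2 fold change -1.18, adjusted p 2.81e-06), and Col4a1 was not called (log2 fold change -0.15, adjusted p 0.479). Col2a1, the collagen gene of cartilage, which the list does not hold, rose: it had at most 3 counts in any sample at pH 7.4, and at pH 6.0 it had 12.3, 9.99 and 6.46 FPM in sample group 3 and 2.28, 1.47 and 1.95 FPM in sample group 1 (log2 fold change 2.33, SE 0.45, adjusted p 0.000612). Fibrillar collagen genes therefore did not share a direction. Col1a1 was lower in sample group 3 at pH 7.4 as well, with 28.9, 17.8 and 22.1 FPM in sample group 3 and 120.1, 76.5 and 83.2 FPM in sample group 1 (log2 fold change -2.02, adjusted p 7.26e-06, and 0.000478 without A021 and A035).

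Genes that cut the matrix or restrain that cutting gave 1 rise and 6 falls among 29 tested, with a median of -0.17. These shares were 3.45% and 20.7%, beside 11% and 15.6% of all genes tested. Mmp15, a membrane-bound metalloproteinase gene, was the member that rose, with 17.7, 14.3 and 11.3 FPM in sample group 3 and 1.91, 1.58 and 2.42 FPM in sample group 1 (log2 fold change 2.85, SE 0.35, adjusted p 5.40e-06). Mmp11 had 15.4, 13.7 and 18.7 FPM in sample group 3 and 37.95, 42.1 and 38.6 FPM in sample group 1 (log2 fold change -1.31, SE 0.13, adjusted p 2.45e-07). Mmp15 and Mmp11 were named as the largest called rise and fall of the list, so their calls and opposite directions follow from that choice. Timp1, an inhibitor gene of metalloproteinases, was not called (log2 fold change -0.11, adjusted p 0.778).

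Adhesion genes with lower calls in sample group 3 outnumbered those with higher ones. Of 30 tested integrin and focal adhesion genes, 1 rose and 10 fell, with a median of -0.18. Itgb5, an integrin gene for vitronectin, had 42.1, 45.4 and 55.8 FPM in sample group 3 and 106, 118 and 124 FPM in sample group 1 (log2 fold change -1.28, SE 0.12, adjusted p 2.57e-07). The integrin gene Itga3 and the paxillin gene Pxn, both chosen after their values were seen, had log2 fold changes of -1.22 (adjusted p 1.01e-06) and -1.01 (adjusted p 8.97e-06). Itga6, a laminin receptor gene, was the member that rose, with 28.5, 24.4 and 24.9 FPM in sample group 3 and 13.3, 12.9 and 12.8 FPM in sample group 1 (log2 fold change 0.998, SE 0.18, adjusted p 0.000353). Of 21 tested CCN genes and targets of YAP and TAZ, 1 rose and 3 fell, with a median of -0.13. These shares were 4.76% and 14.3%, beside 11% and 15.6% of all genes tested. The rise was that of Tead4 (log2 fold change 0.62, adjusted p 0.0273), lost without A025, A026, A036 or A037 (adjusted p up to 0.121). Ccn2, the connective tissue growth factor gene, had 809, 706 and 888 FPM in sample group 3 and 1785, 1855 and 2028 FPM in sample group 1 (log2 fold change -1.24, SE 0.12, adjusted p 2.45e-07). It was 2.36-fold higher in sample group 1. Of 17 tested contractile genes, 2 rose and 3 fell (11.8% and 17.6%), near the shares over all genes, with a median of -0.090. Acta2, the smooth muscle actin gene, was not called (log2 fold change -0.18, adjusted p 0.638), Myh11, the smooth muscle myosin gene, rose (log2 fold change 0.88, adjusted p 0.000328), and Synpo2, an actin-bundling gene, fell (log2 fold change -1.43, adjusted p 0.000553).

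Genes of TGF-beta and BMP signalling fell more often than they rose. Of 33 tested, 4 rose and 12 fell, with a median of -0.48. Id2, a target of BMP signals that restrains differentiation factors, had 15.2, 15.03 and 21.2 FPM in sample group 3 and 47.6, 57.1 and 62.5 FPM in sample group 1 (log2 fold change -1.70, SE 0.15, adjusted p 8.43e-08). Id1 and Id3 from the same family, Smad7, the feedback inhibitor gene of the pathway, and the ligand gene Tgfb1 were chosen after their values were seen. Their log2 fold changes were -1.31, -1.48, -1.04 and -1.32, all called. The ligand gene Bmp6 rose instead, with 20.9, 22.2 and 22.97 FPM in sample group 3 and 10.9, 12.4 and 10.1 FPM in sample group 1 (log2 fold change 0.99, SE 0.17, adjusted p 0.000151). Gdf15, a stress-induced ligand gene also held by the list of the integrated stress response and chosen after its values were seen, had 2.14, 2.58 and 2.37 FPM in sample group 3 and 0.318, 0.437 and 0.524 FPM in sample group 1 (log2 fold change 2.43, adjusted p 0.00327). Acid responses were lower in sample group 3 for 12 members (36.4%), beside 6.46% of all genes tested. Without A021 and A035 this held for 9. For Id2 the response was a rise in sample group 1 (log2 fold change 1.32, adjusted p 4.70e-07) and was not called in sample group 3 (0.038, adjusted p 0.860), and the difference of both was -1.28 (adjusted p 0.000550).

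Genes of the list written for epithelia were called about as often as genes at large. The list holds keratin, claudin, cadherin and junction genes, and also Vim, the vimentin gene, known from mesenchymal cells. Of its 24 tested genes, 2 rose and 3 fell, with a median of -0.29. Jup, the plakoglobin gene, had 266, 267 and 271 FPM in sample group 3 and 394, 374 and 375 FPM in sample group 1 (log2 fold change -0.51, SE 0.093, adjusted p 0.000372). Of 22 tested solute carriers and tubule transport genes, 3 rose and 4 fell, with a median of -0.24. These shares were 13.6% and 18.2%, near the 11% and 15.6% of all genes tested. Aqp1, the water channel gene of the proximal tubule, had 24.1, 25.5 and 32.1 FPM in sample group 3 and 91.9, 107 and 118 FPM in sample group 1 (log2 fold change -1.96, SE 0.14, adjusted p 5.83e-09). The level in sample group 1 was 3.88-fold that in sample group 3. Aqp3, another water channel gene, had 1.25, 1.15 and 1.73 FPM in sample group 3 and 6.25, 5.29 and 5.16 FPM in sample group 1 (log2 fold change -2.00, adjusted p 2.20e-05), and Slc20a1, a phosphate carrier gene, rose (log2 fold change 0.48, adjusted p 0.000417). The injury marker gene Lcn2 was near 1 FPM and not called (log2 fold change 0.33, adjusted p 0.573), and Havcr1, another injury marker, had too few counts to be tested.

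Of 34 tested genes of acid-base transport, proton sensing and ammonia formation, 1 rose and 10 fell, with a median of -0.20. The member that rose was the arrestin gene Arrdc4 (log2 fold change 0.43, adjusted p 0.0358), a call lost without A025, A026, A036 or A037 (adjusted p up to 0.166). Ca9, the membrane carbonic anhydrase gene, had 268, 253 and 327 FPM in sample group 3 and 730.4, 745 and 733 FPM in sample group 1 (log2 fold change -1.38, SE 0.10, adjusted p 9.18e-09). It was 2.61-fold higher in sample group 1. Slc16a3, a lactate and proton carrier gene, and Glul, the glutamine synthetase gene, were chosen after their values were seen and had log2 fold changes of -1.60 (adjusted p 0.00113) and -1.16 (adjusted p 5.06e-09). Txnip, an acid- and glucose-sensitive arrestin gene, fell (log2 fold change -0.37, adjusted p 0.00741).

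Of 31 tested glycolytic and hypoxia-inducible genes, 2 rose and 9 fell, with a median of -0.20. The phosphofructokinase gene Pfkp and the glucose carrier gene Slc2a3, chosen after their values were seen, had log2 fold changes of -1.81 (adjusted p 2.34e-08) and -2.94 (adjusted p 0.00392). With 1 replicate left out, Slc2a3 ranged from -3.84 to -2.36 (adjusted p up to 0.0455). Of 46 tested nuclear genes of the respiratory chain, 2 rose and 0 fell by edgeR, with 0 falls also by DESeq2 and at an unadjusted p under 0.05. Their median was 0.13, and Cycs, the cytochrome c gene, was at 274, 259.5 and 314 FPM in sample group 3 and 157, 159 and 175 FPM in sample group 1 (log2 fold change 0.79, SE 0.14, adjusted p 0.000306). Sample group 3 lay above sample group 1 in all its samples. The 13 genes encoded in mitochondria had about 0 counts and were not tested, and whether they were removed before counting is not given in the sources used here. Of 22 tested genes of fatty acid synthesis, 0 rose by edgeR (1 by DESeq2 and 1 at an unadjusted p under 0.05) and 7 fell (median -0.13), among them Acaca, the first enzyme gene of the path (log2 fold change -0.84, adjusted p 0.00126). Of 27 tested genes of fatty acid oxidation and lipid droplets, 1 rose, Cpt1c (log2 fold change 0.38, adjusted p 0.00529), and 2 fell (median -0.058).

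Cholesterol synthesis genes rose more often than they fell. Of 27 tested, 10 rose and 2 fell, with a median of 0.29. Hmgcs1, an early enzyme gene of the path, had 226, 232 and 248 FPM in sample group 3 and 159, 127 and 141 FPM in sample group 1 (log2 fold change 0.73, SE 0.13, adjusted p 0.000385). At pH 7.4 the list leaned the same way, with 12 genes higher (44.4%), beside 1.18% of all genes tested, and a median of 0.53. Without A021 and A035, 9 genes were higher. The median of the list was thus above 0 at both pH values.

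Redox and iron genes were near the share over all genes. Of 33 tested NRF2 targets and glutathione genes, 4 rose and 4 fell, with a median of -0.011. Gstp1, a glutathione transferase gene, had 609, 610.4 and 784 FPM in sample group 3 and 1397, 1736 and 2007 FPM in sample group 1 (log2 fold change -1.36, SE 0.25, adjusted p 0.000326). Nqo1, the quinone reductase gene, had 359, 408 and 471 FPM in sample group 3 and 514, 544 and 638 FPM in sample group 1 (log2 fold change -0.46, adjusted p 0.0309), and its call was lost without A025, A026, A036 or A037, at adjusted p up to 0.143. Hmox1, the heme oxygenase gene, rose from a low level, with 2.20, 1.32 and 3.60 FPM in sample group 3 and 0.900, 0.819 and 0.670 FPM in sample group 1 (log2 fold change 1.61, SE 0.32, adjusted p 0.000876). Classical NRF2 targets thus moved both ways. Of 15 tested metallothionein and zinc carrier genes, 1 rose, Slc30a5 (log2 fold change 0.41, adjusted p 0.000439), and 1 fell (median 0.18). Of 14 tested iron genes, 2 rose and 2 fell (median 0.12), and Cp, the ceruloplasmin gene, had 6.90, 6.69 and 5.96 FPM in sample group 3 and 16.04, 18.3 and 16.1 FPM in sample group 1 (log2 fold change -1.37, SE 0.13, adjusted p 2.10e-07).

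Ribosomal protein and proteasome genes showed few calls. Of 51 tested genes of cytosolic ribosomal proteins, 0 rose and 0 fell by edgeR, with a median of -0.031, and the counts were also 0 by DESeq2 and at an unadjusted p under 0.05. Their summed level was 52046, 51005 and 63706 FPM in sample group 3 and 48247, 59786 and 65289 FPM in sample group 1, so the groups overlapped. Of 34 tested factors that build ribosomes, 7 rose and 1 fell (Noc2l, a call lost without A026 or A036), with a median of 0.16, and Rrp12 was at 13.9, 11.6 and 11.2 FPM in sample group 3 and 8.68, 5.73 and 7.22 FPM in sample group 1 (log2 fold change 0.76, SE 0.18, adjusted p 0.00312). Of 39 tested proteasome genes, 1 rose and 1 fell, with a median of 0.18. Psmd1, a subunit gene of the regulatory particle, fell (log2 fold change -0.37, adjusted p 0.00117), and Psmd3 of the same particle rose (log2 fold change 0.42, adjusted p 0.0194), a call lost without A024, A025 or A036 (adjusted p up to 0.0832).

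Interferon genes split. Of 43 tested interferon-stimulated and antigen-processing genes, 13 rose and 9 fell, with a median of 0.20. Irf7, a master factor gene of the interferon response, had 49.4, 50.97 and 57.1 FPM in sample group 3 and 17.9, 18.6 and 19.3 FPM in sample group 1 (log2 fold change 1.50, SE 0.16, adjusted p 8.46e-07). Ifi27l2b, an interferon-inducible gene, had 259, 282 and 344 FPM in sample group 3 and 104.5, 109.9 and 117 FPM in sample group 1 (log2 fold change 1.42, SE 0.31, adjusted p 0.00188). Tap1, the gene of a peptide transporter for antigen presentation, was chosen after its values were seen and rose (log2 fold change 1.22, adjusted p 2.34e-08). Ifi27, of the same family as Ifi27l2b, fell, with 9.14, 10.7 and 12.8 FPM in sample group 3 and 26.8, 40.7 and 37.1 FPM in sample group 1 (log2 fold change -1.68, SE 0.24, adjusted p 2.51e-05). No common direction was seen. Of 40 tested chemokine, cytokine and NF-kappaB genes, 4 rose and 11 fell, with a median of -0.19. Tnfsf18, a TNF family ligand gene, had 8.10, 7.85 and 10.3 FPM in sample group 3 and 31.9, 26.3 and 32.3 FPM in sample group 1 (log2 fold change -1.79, SE 0.19, adjusted p 7.13e-07), and Lif, a cytokine gene of the IL-6 family, rose (log2 fold change 0.57, adjusted p 0.000164).

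Growth signal genes fell more often than they rose. Of 32 tested AP-1 and immediate early genes, 3 rose and 13 fell, with a median of -0.40. Phlda1, an early response gene, had 3.34, 1.98 and 1.82 FPM in sample group 3 and 9.63, 7.15 and 8.85 FPM in sample group 1 (log2 fold change -1.85, SE 0.18, adjusted p 2.29e-07). Egr1, an early growth response factor gene, and Dusp4, the gene of a phosphatase that acts on MAP kinases, were chosen after their values were seen and had log2 fold changes of -1.31 (adjusted p 1.16e-05) and -1.98 (adjusted p 0.00235). Of 34 tested growth factor ligands and receptors, 2 rose and 9 fell, with a median of -0.29. Igf2r, the receptor gene that also sorts lysosomal hydrolases, had 20.4, 23.8 and 21.5 FPM in sample group 3 and 62.5, 60.3 and 59.2 FPM in sample group 1 (log2 fold change -1.47, SE 0.24, adjusted p 0.000147). Areg, the amphiregulin gene, chosen after its values were seen, fell too (log2 fold change -1.66, adjusted p 0.00108), and the receptor gene Fgfr1 rose (log2 fold change 0.94, adjusted p 0.00204). Of 20 tested clock genes, 1 rose and 6 fell, with a median of -0.17. Per2 had 12.6, 11.6 and 11.2 FPM in sample group 3 and 34.9, 31.9 and 26.8 FPM in sample group 1 (log2 fold change -1.40, SE 0.24, adjusted p 0.000217), Dbp, a clock output gene, fell (log2 fold change -0.95, adjusted p 6.10e-07), and Nfil3, a repressor gene of the same output sites, rose (log2 fold change 1.13, adjusted p 3.42e-06).

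Genes outside the themes gave some of the largest differences. Called genes were ranked where their mean at pH 6.0 was 5 FPM or more and the groups did not overlap. Pask, a nutrient-sensing kinase gene, rose most of these, with 20.2, 17.8 and 15.7 FPM in sample group 3 and 3.33, 1.69 and 1.98 FPM in sample group 1 (log2 fold change 2.95, SE 0.25, adjusted p 4.31e-08). Mybl1, a transcription factor gene of the MYB family, had 23.6, 23.3 and 18.98 FPM in sample group 3 and 6.30, 4.31 and 5.65 FPM in sample group 1 (log2 fold change 2.01, SE 0.18, adjusted p 1.36e-07). Wnt4, a signalling ligand gene of kidney development, had 23.1, 22.4 and 22.7 FPM in sample group 3 and 5.45, 6.82 and 4.81 FPM in sample group 1 (log2 fold change 2.01, SE 0.15, adjusted p 1.29e-08). That the groups of these 3 genes lay apart was set by the way they were ranked. Trim63, the gene of a ubiquitin ligase best known from muscle, fell most, with 1.10, 1.10 and 1.48 FPM in sample group 3 and 10.9, 10.97 and 11.5 FPM in sample group 1 (log2 fold change -3.17, SE 0.42, adjusted p 1.33e-05). Duox2, a hydrogen peroxide-producing oxidase gene, had 20.4, 21.4 and 22.9 FPM in sample group 3 and 161, 173 and 183 FPM in sample group 1 (log2 fold change -3.00, SE 0.26, adjusted p 6.21e-08). Tmem150a, a membrane protein gene, had 13.1, 14.9 and 15.5 FPM in sample group 3 and 83.9, 91.4 and 93.7 FPM in sample group 1 (log2 fold change -2.63, SE 0.12, adjusted p 4.28e-11). In each of these, sample group 1 exceeded sample group 3 by more than 5-fold. Further falls among the 10 largest were Dact2 (-2.54), Prr15l (-2.49), Fxyd5 (-2.46), Dipk1c (-2.39), Stard9 (-2.31), Itgax (-2.27) and Ahsp (-2.26), on the log2 scale. Further rises among the 10 largest were Gas2l3 (2.09) and Sytl1 (1.96), beside Mmp15, Ckap2, Hmmr, Col2a1 and Kifc1. Ncoa5, a nuclear receptor coactivator gene, fell by a small amount with a narrow spread, at 22.2, 22.2 and 21.98 FPM in sample group 3 and 29.7, 30.8 and 29.3 FPM in sample group 1 (log2 fold change -0.44, adjusted p 0.000446).

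At pH 7.4 the same sample groups differed in 434 genes, 2.80% of those tested. Of these 183 (1.18%) were higher in sample group 3 and 251 (1.62%) lower. Without A021 and A035 the count was 243, and it was 899 by DESeq2 and 875 with only the NRK-52E samples in the model. It also moved by more than 1.5 times with a single sample left out: to 289 without A021, 226 without A022 and 243 without A034. Both comparisons share no sample, though the spread of each gene was estimated for both in the same model. Of the genes called at pH 7.4, 307 (70.7%) were also called at pH 6.0, beside 26.5% of all genes tested. They made up 7.48% of those called at pH 6.0, and 288 of the 307 had the same direction. Over the 10373 genes whose mean in NRK-52E cells was 5 FPM or more, the log2 fold changes at both pH values correlated across genes at r = 0.37 (Spearman's rho 0.31). Among genes higher in sample group 3 at both pH values were Top2a, Ccnb1, Hmmr, Hmgcs1 and Bmp6, and among those lower at both were Col1a1, Gpnmb, Itgb5 and Cp. All 9 were also called at pH 7.4 without A021 and A035. Gpnmb had 857, 916 and 889.6 FPM in sample group 3 and 1242, 1408 and 1493 FPM in sample group 1 at pH 7.4.

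The acid response, pH 6.0 against pH 7.4, was called for 7347 genes (47.5%) in sample group 1 and for 8654 (55.9%) in sample group 3, and without A021 and A035 for 6515 and 8196. Both responses share no sample with each other, though the spread of each gene was estimated for both in the same model. They were called together for 6011 genes, 81.8% of those of sample group 1 and 69.5% of those of sample group 3. The direction was the same in 5940 of them and opposite in 71. Among the 5940, the absolute change was larger in sample group 3 for 4401 (74.1%). Over the genes of at least 5 FPM, the SD of the log2 fold change was 0.72 in sample group 1 and 0.95 in sample group 3. Of the 71 genes with opposite responses, 30 rose and 41 fell in sample group 3.

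The difference between both acid responses, tested as an interaction, was called for 1534 genes (9.91%), 534 (3.45%) with a higher response in sample group 3 and 1000 (6.46%) with a lower one. Without A021 and A035 it was called for 950 genes, 295 with a higher and 655 with a lower response, and 884 genes were called both ways. Pask was flat in sample group 1, with 2.49, 2.21 and 2.46 FPM at pH 7.4 and 3.33, 1.69 and 1.98 FPM at pH 6.0, and rose in sample group 3 from 2.23, 2.89 and 2.09 to 20.2, 17.8 and 15.7 FPM. The difference of its responses was 2.94 on the log2 scale (SE 0.35, adjusted p 2.91e-05). Mmp15 fell with acid in sample group 1 (log2 fold change -1.03, adjusted p 0.0208) and rose in sample group 3 (1.85, adjusted p 8.89e-05). Aqp1 did the opposite: it rose in sample group 1 (0.59, adjusted p 0.00106) and fell in sample group 3 (-1.51, adjusted p 1.11e-08). Gpc1, a glypican gene, fell in sample group 1 (-1.38, adjusted p 3.69e-05) and rose in sample group 3 (0.98, adjusted p 0.000603). The responses of Mmp15, Aqp1 and Gpc1 thus crossed 0 between the sample groups. For Gpc1 the difference of responses was 2.36 with all samples and 1.77 without A021 and A035. Fbln5 fell less in sample group 1 (-0.27, adjusted p 0.0380) than in sample group 3 (-2.63, adjusted p 3.62e-13), a difference of -2.36 (adjusted p 1.47e-08).

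**Figure D3:**
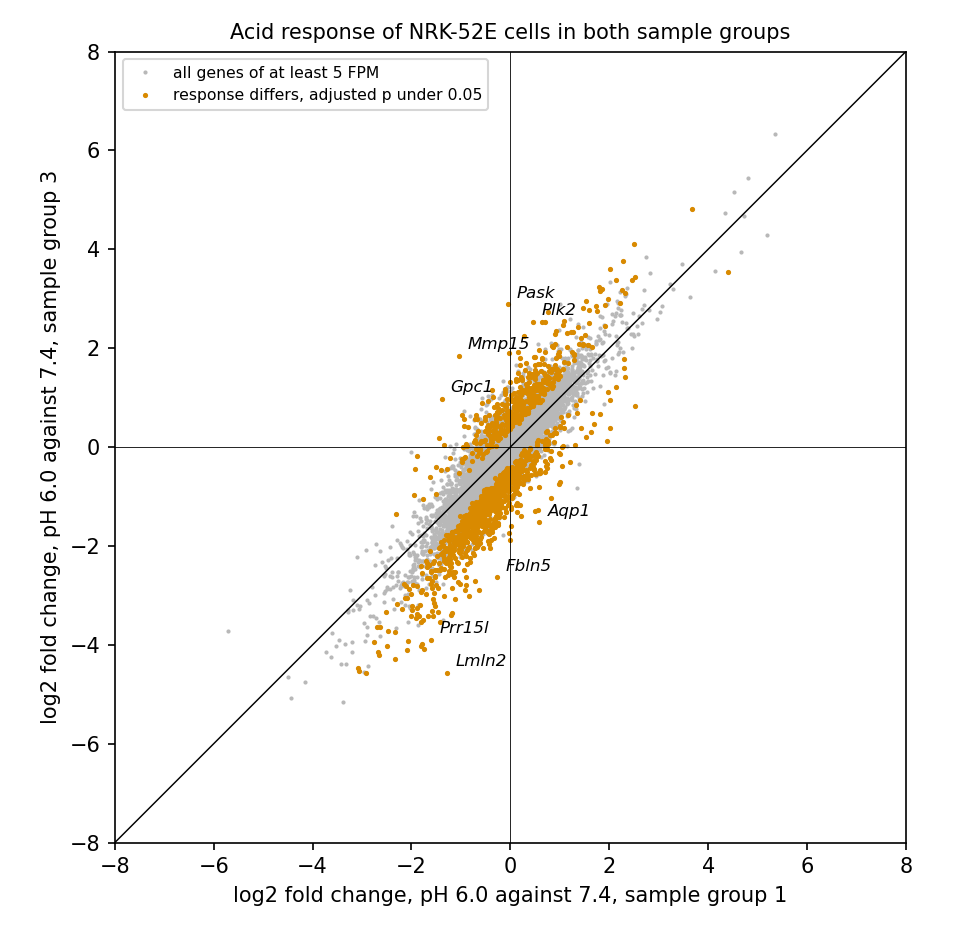
Log2 fold change at pH 6.0 against pH 7.4 in sample group 1 (horizontal) and in sample group 3 (vertical), with 1 point for each of the 10373 genes of at least 5 FPM in NRK-52E cells. Coloured points are the 1315 genes among them whose responses differ at an adjusted p under 0.05, and the diagonal marks equal responses.

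The other cell line offers the same kind of comparison. At pH 6.0, sample groups 6 and 4 of NRK-49F cells differed in 5 genes (0.0323%), 4 higher and 1 lower in sample group 6, from 3 and 2 samples. The count was 73 by DESeq2, 0 without A042 and 136 without A043, which are the 2 samples of sample group 4, and 2 without A054, A055 or A056. At an unadjusted p under 0.05 there were 982 genes, beside 5675 in NRK-52E cells at pH 6.0. Whether the lines differ in how far their sample groups lie apart was not tested.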

How the data were processed

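Poly(A) RNA of NRK-52E and NRK-49F cells at pH 7.4 and pH 6.0 was sequenced in read pairs. The deposited values are raw counts per Ensembl gene, which the authors made with HISAT2 2.1.0 and featureCounts, counting read pairs on exons with multi-mapping reads included. The submitters' notes name the genome build rn6 and the paper's methods rn7. Of the sample columns 23 were used, and 13 others, which no label matches, were left out.

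Samples were grouped by cell line, pH and sample group into 8 groups and fitted in a single model with edgeR 4.0.16 in R 4.3.3, with TMM scaling and filterByExpr (minimum count 10, minimum total 15), which kept 15478 of 30452 genes. Comparisons were contrasts tested by the quasi-likelihood test, with p-values adjusted over all genes kept (threshold 0.05). The difference of acid responses is the contrast of both pH differences. An SE is the absolute log2 fold change over the square root of F. Totals ranged from 16412564 counts upward. Where a group had at most 3 counts in every sample, no fold change against it is given. A 3 against 3 permutation test cannot go below p = 0.1, so none was used.

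The 41 gene lists were written from general knowledge, and 15 members were matched by another name. Members and lists were chosen with earlier results of these data known. Named genes are the 10 largest rises and falls among called genes with a symbol (not a placeholder name), a mean of at least 5 FPM at pH 6.0 and no overlap, the largest rise and fall of each list among called genes of at least 5 FPM, 42 key genes, and the 5 largest differences of acid responses each way. Some key genes are not reported here. Other genes are marked as chosen after their values were seen. Promoters are from RefSeq (GRCr8), with 10192 of the tested genes matched by symbol.

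Alternatives were RLE and upper-quartile scaling, DESeq2 1.42.0, a call by both tools, a test that asks for a 2-fold change (a log2 of 1 either way), adjusted p under 0.01, other filters, thinned libraries, fewer samples in the fit and each replicate left out. A fit without A021 and A035 was chosen after seeing the data. The steps were tested on simulated data. Plots come from matplotlib 3.10.9 under Python 3.11.15.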

Additional observations from a re-analysis of the deposited data

Results flagged for a closer look

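The acid response, pH 6.0 against pH 7.4, differed between sample groups 3 and 1 of NRK-52E cells in 1534 genes, tested as an interaction in edgeR. Each value that follows is the response in sample group 3 minus the response in sample group 1, on the log2 scale, for the named genes that passed. All 56 kept their sign without A021 and A035 and 43 were also called then.

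Of genes of the cell cycle and of p53 targets, Ckap2 had 1.82, Hmmr 1.39, Mybl1 1.96, Plk2 2.08, Mdm2 1.18, Cdkn1a 1.14, Mcm2 -0.47, Brca1 -0.97 and Stard9 -1.38. Of stress and redox genes, Hspa5 had 1.34, Slc3a2 1.20, Hsp90aa1 0.51, Asns 0.41, Hmox1 1.56, Nqo1 -0.87, Gstp1 -1.15 and Duox2 -1.50. Of lysosomal, lipid, metal and protein turnover genes, Neu1 had -0.90, Atp6ap2 -0.56, Dhcr7 -0.91, Steap3 0.73, Psmd1 -0.58 and Piga 1.98.

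Of matrix and adhesion genes, Mmp15 had 2.88, Gpc1 2.36, Col1a1 1.11, Itga6 0.97, Col18a1 -0.76, Mmp11 -1.19, Ccn2 -0.65, Fbln5 -2.36, Itgax -1.32 and Myh11 0.91. Without A021 and A035 the value of Gpc1 was 1.77. Of transport and acid-handling genes, Aqp1 had -2.10, Aqp3 -2.26, Ca9 -1.23 and Slc20a1 0.57. Of signalling, interferon and clock genes, Wnt4 had 1.28, Dact2 -2.20, Id2 -1.28, Phlda1 -1.38, Irf7 1.30, Ifi27 -1.49, Lif 0.50, Tnfsf18 -1.63, Nfil3 0.84 and Dbp -0.86.

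Of the remaining genes, Pask had 2.94, Sytl1 1.34, Ncoa5 -0.36, Ahsp -1.78, Dipk1c -1.88, Tmem150a -2.18, Prr15l -2.29, Cyp11b1 -2.33 and Lmln2 -3.28. The calls lost without A021 and A035 were those of Brca1, Itga6, Ccn2, Hsp90aa1, Gstp1, Lif, Mcm2, Ncoa5, Col1a1, Nqo1, Hmox1, Piga and Cyp11b1, with adjusted p from 0.0558 (Lif) to 0.159 (Gstp1).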

How the results depend on the processing

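No call of a named gene at pH 6.0 changed sign under any alternative run. At pH 6.0, the count of 4105 genes fell to 178 in the test that asks for a 2-fold change and to 2595 at an adjusted p under 0.01, and was 3208 to 3419 with 1 replicate left out. It was 4577 by DESeq2, 4968 with only NRK-52E samples and 5644 (2687 higher) with only the 6 samples at pH 6.0. At pH 7.4, 434 genes became 899 by DESeq2, 8 against the fold, 188 at 0.01, 875 with only NRK-52E samples and 243 without A021 and A035 (226 to 368 with 1 replicate left out, and without A035 158 were higher and 153 lower, where with all samples more were lower). The 1534 differences of acid responses became 13 against the fold, 685 at 0.01, 2169 by DESeq2, 2113 with only NRK-52E samples and 950 without A021 and A035 (1048 to 1455 with 1 replicate left out). For NRK-49F cells, 5 genes became 73 by DESeq2, 0 against the fold, 2 at 0.01 and 0 with only that line (0 to 136 with 1 replicate left out, the 136 being 60 higher and 76 lower without A043, where without A042 or A043 sample group 4 has 1 sample, assumed to vary like the other groups). The counts of acid responses, whose alternatives were chosen after seeing the data, became 1339 in sample group 1 and 2505 in sample group 3 against the fold (6225 to 6505 and 7805 to 8231 with 1 replicate left out). A stricter threshold or fold passes fewer genes by construction. For the other moves the cause was not tested.

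Of 2016 values of 119 named genes under the alternatives at pH 6.0, 1823 kept their direction and side of the threshold, 170 lost the call, 14 gained it and 9 changed sign, and 41 genes kept theirs in all. With 1 replicate left out, 637 of 714 kept theirs. The 9 values are from 4 genes never called. Ctsd gave -0.01042 with genes of 1 count kept, -0.01371 with at least 10 counts in every sample and -0.09025 to 0.0658 with 1 replicate left out. Ccnd1 gave 0.002561 with upper-quartile scaling and -0.07318 to 0.01357 with 1 replicate left out. Krt8 then gave -0.1739 to 0.05133 and Lcn2 -0.01765 to 0.758. Calls were gained by Lamp1 (upper-quartile scaling, DESeq2 and both smaller fits), Pcna (upper-quartile scaling and both smaller fits), Atf4, Ctsl and Cyp11b1 (both smaller fits) and Fn1 (only the 6 samples), where the smaller fits hold only NRK-52E samples or only the 6. Calls lost with 1 replicate left out and not given elsewhere were those of Ctso, Myom1, Piga, Gclm, the rises of Steap3 (iron) and Tjp3 (epithelial genes) and the falls of Dhcr7 (cholesterol) and Angptl4 (lipid droplets). Genes near 1 FPM, such as Spp1 and Lcn2, rest on few counts. Sample group and any difference in handling cannot be told apart.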
